A study of Caenorhabditis elegans with 6 samples.

Results

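The wild-type transcriptome of *C. elegans* at the late L4 larval stage was read from the Cy3 channel of 6 two-color Agilent 22K arrays, which is 6 of the 12 channels measured. Each array held N2 cDNA in Cy3 next to cDNA of 1 *ets-4* mutant strain in Cy5, and the mutant channel was not used. The experiment was made in 3 repeats, and the number given with each array placed 2 arrays in repeat 3, 2 in repeat 2 and 2 in repeat 1. The 2 mutant strains, *ets-4(ok165)* on array 1 and *ets-4(uz1)* on array 2 of each repeat, carry deletions in the gene of an ETS transcription factor, and the study asked how its loss changes expression. All wild-type larvae had the same genotype and stage label and came from eggs released by hypochlorite treatment of adults, fed on OP50 bacteria on plates. RNA was taken from whole worms of mixed cell types, so fewer cells of a type and less RNA per cell cannot be told apart in any value here. The members are thus the same strain measured again, and the question is which transcripts were abundant and which were not repeatable between repeats.

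The late L4 is the last larval stage before the adult molt. In hermaphrodites the germ line stops making sperm and turns to oocytes, the epidermis builds the adult cuticle beneath the L4 one, and the vulva and uterus take their adult form. Yolk proteins, the vitellogenins, are made in the intestine of the adult hermaphrodite and taken up by oocytes through the receptor RME-2, and many cuticle collagen genes are transcribed in short pulses tied to each molt.

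Signal is given as log2 of the deposited background-subtracted and dye-normalized Cy3 intensity, quantile normalized over the 6 arrays, so that a difference of 1 is 2-fold. Brightness depends on the probe as well as on the transcript, and ranks of genes by signal are a description of the probes with no test. Each array had 21482 spots that were not controls, of which 68.5% to 72.9% were well above background. These spots represent 18873 genes, 12178 of them well above background on all 6 arrays and 4665 on none. The repeats differed in how they were read. Both arrays of repeat 1 lay on 1 slide of their own and were extracted with an earlier software version, and 83 and 63 of their spots were saturated against 0 on the other arrays. In repeats 3 and 2 array 1 lay on the second slide and array 2 on the third. The 2 arrays of each of these repeats shared a scan date, which differed between the repeats, so repeat and scan date cannot be told apart. The 2 arrays of repeat 1 had different scan dates. On the third slide 14 spots, 13 of them close together in rows 56 to 62 of the array, were at least 3 log2 units darker on both arrays than on the other 4. *acdh-10*, an acyl-CoA dehydrogenase gene, was 1 of the 14 genes, at 15.28 and 5.07 in repeat 3, 16.01 and 4.90 in repeat 2 and 16.14 and 16.04 in repeat 1, and no difference between repeats was called for it.

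Ribosomal protein genes gave the brightest signals of the 47 lists, followed by the collagens of the L4 and adult cuticle. The median over all genes on the arrays was 9.16, against 18.2 for 75 ribosomal protein genes, 14.7 for 41 genes of the respiratory chain, 14.6 for 16 lysozyme genes, 14.2 for 17 genes of fatty acid synthesis and 14.2 for 33 proteasome genes. Cuticle collagens spread widely, from 4.83 to 19 with a median of 14 over 167 genes, and the 9 collagens listed for the L4 and adult cuticle had a median of 16.3. Among tissue markers the intestine stood highest, with a median of 13.9 over 16 genes. Body wall muscle followed at 12.8 (18 genes), then sperm at 12.6 (86 genes), oocyte at 11.6 (27 genes), epidermis at 11.2 (15 genes), germ line at 10.7 (28 genes), pharynx at 9.98 (16 genes) and neurons at 9.40 (42 genes). The signal of vitellogenin probes was narrow, from 13.8 to 14.9 over 6 genes.

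The dim end held some lists of few cells and of other stages. Other such lists were not dim, with medians of 10.44 for 19 vulva and anchor cell genes and 10.25 for 6 dauer genes. For 3 coelomocyte genes it was 8.87. Of 1299 chemoreceptor genes, which act mostly in single sensory neurons, 41 were well above background on all 6 arrays and 1147 on none, and their median signal was 4.96. Zygotic genes of the early embryo had a median of 5.07, with 13 of 20 not above background on any array. For 9 markers of male-specific neurons the median was 5.05, and 0 of the 9 passed on all arrays. F-box genes (338 genes, median 5.66) and C-type lectins (237 genes, median 5.85), both large families, lay below the median of all genes too, although single lectins reached 17.9. The order of the 47 gene classes by median signal was nearly the same on each array, with Spearman correlations of at least 0.982 between the order on 1 array and the order of the means.

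**Figure D1:**
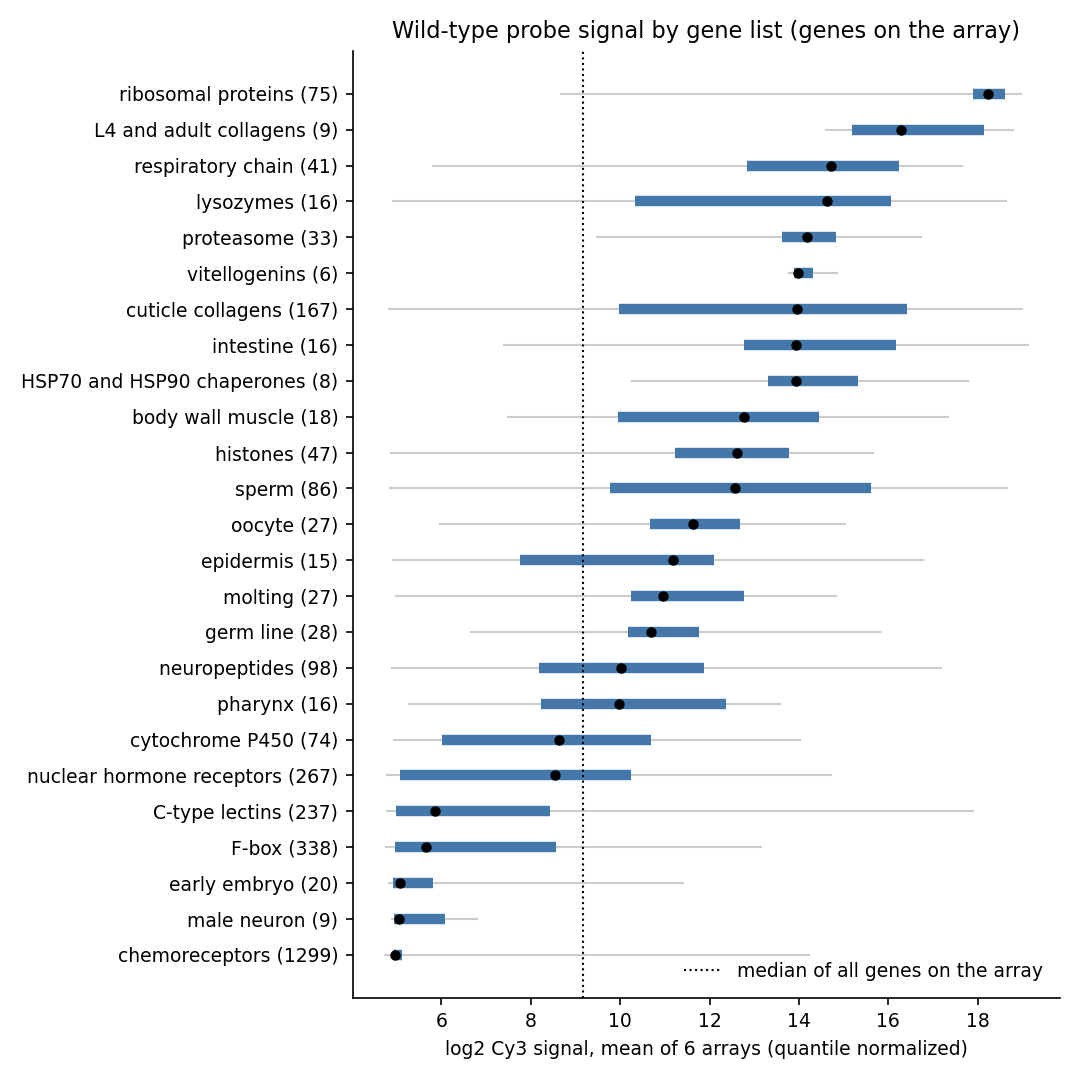
Wild-type log2 Cy3 signal of 25 gene lists, as the mean of 6 arrays (x axis) for the genes on the array (number in parentheses). Points are medians, thick bars the range between the quartiles and thin lines their full range; ribosomal proteins lie highest with a median of 18.2 and chemoreceptors lowest with 4.96, around the median of all genes of 9.16 (dotted line).

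By the mean of the 6 arrays the brightest probe was that of *asp-1*, an aspartyl protease gene of the intestine, with means of 19.14 in repeat 3, 19.46 in repeat 2 and 18.75 in repeat 1. Next came the collagen genes *col-36*, *col-42*, *col-154*, *col-91* and *col-38*, the ribosomal protein genes *rps-14*, *rplp-2.1*, *rps-23*, *rplp-1* and *rpl-7A*, and *F41F3.3*. All 12 were saturated on both arrays of repeat 1, so their repeat 1 values are lower limits, no fold is given against them, and their order is not settled. In repeat 3 alone *col-42* (19.30), *col-36* (19.27) and *rps-14* (19.21) read above *asp-1*, and in repeat 1 several genes did, with *asp-6*, named after its values were seen, the highest at 19.23. Saturation on both arrays touched 59 genes, among them 29 ribosomal protein genes and 10 collagens, and 23 of the 24 brightest genes. At the other end, the lowest signals among named genes that were well above background on all 6 arrays were those of *gcn-1* (6.38 and 6.28 in repeat 3, 6.80 and 6.58 in repeat 2, 6.53 and 7.23 in repeat 1), *fbxa-139*, *osm-5*, *glam-4*, *sre-4*, *tig-3*, *talp-3*, *iglr-1*, *del-3*, *affl-2*, *svh-11* and *cutl-19*. *osm-5* is needed for intraflagellar transport in ciliated neurons and *sre-4* is a chemoreceptor gene. *svh-11* differed most between repeats among these 12, with 6.19 and 5.93 in repeat 3 against 7.48 and 7.59 in repeat 2.

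Some bright genes hardly moved. *cts-1*, which encodes citrate synthase, averaged 16.97 in repeat 3, 16.96 in repeat 2 and 16.99 in repeat 1, with an SD of 0.035 over the 6 arrays. *mif-2* averaged 14.02 in repeat 3, 14.07 in repeat 2 and 14.05 in repeat 1, with an SD of 0.033. *chat-1*, for a lipid flippase subunit, had an SD of 0.034 around 13.29. The other genes among the 10 with the smallest SD in the top quartile of signal were *let-805*, for a protein that ties epidermis to muscle, *fau-1*, *pxf-1*, *T26E3.4*, *K11D12.7*, *F36A2.2* and *Y71G12B.10*.

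Arrays of the same repeat resembled each other far more than arrays of different repeats. Over 13621 genes the SD of the difference between the 2 arrays of a repeat was 0.280 in repeat 3, 0.318 in repeat 2 and 0.327 in repeat 1, and Pearson correlations were 0.992 to 0.994 across genes. The dark spots of the third slide enter every pair of arrays with only 1 on that slide. Such are the pairs within repeats 3 and 2, but not the pair of repeat 1. The SDs were not computed without these spots, so they do not rank the repeats by repeatability. Between repeats the SD was 0.946 to 0.993 for repeat 3 against repeat 2, 0.815 to 0.884 for repeat 3 against repeat 1 and 0.569 to 0.628 for repeat 2 against repeat 1. Repeat 3 stood apart from both others. Genes above background on all arrays had a median SD of 0.0993 within a repeat and a median range of 0.688 between the highest and lowest repeat mean. That range was under 0.5 log2 units for 32.2% of them, over 1 for 26.9% and over 2 for 3.36%. Spots of the same probe printed several times on an array had a median SD of 0.108 to 0.228. Whether the 2 arrays of a repeat carried the same wild-type RNA is not given in the sources used here, so the p-values below measure only the spread between these arrays, which may be technical.

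**Figure D2:**
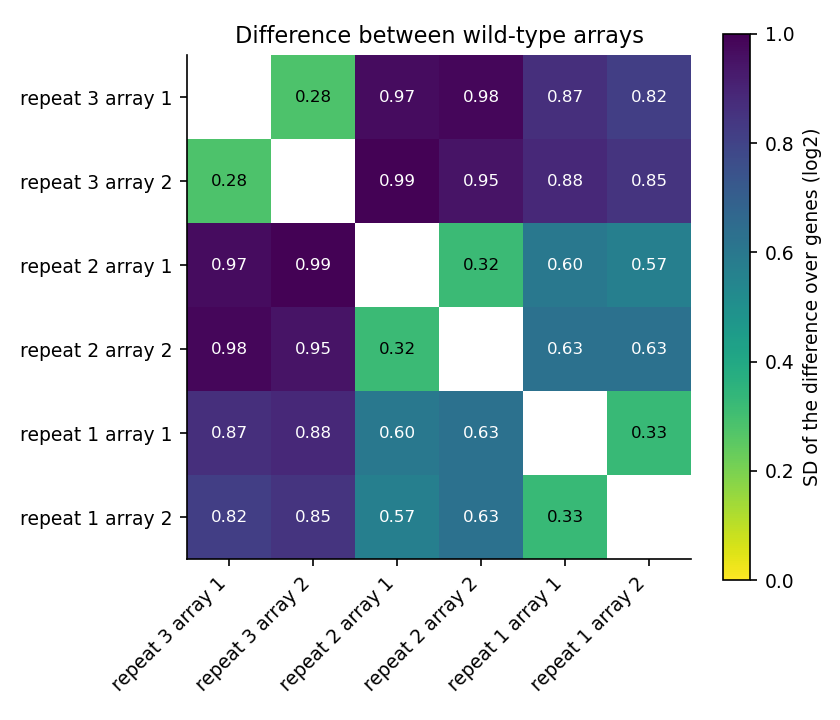
SD over genes of the difference in log2 Cy3 signal for each pair of the 6 wild-type arrays (color scale and number in each cell), with both axes in the order repeat 3, repeat 2, repeat 1. The 3 pairs from the same repeat lie at 0.280 to 0.327, and pairs of a repeat 3 with a repeat 2 array reach 0.993. The dark spots of the third slide are included and enter the pairs within repeats 3 and 2 but not that of repeat 1.

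The test by limma over the 3 repeats called 10764 of 13785 genes (78.1%) at a Benjamini-Hochberg adjusted p under 0.05. In repeat 3 minus repeat 2 it called 9582 of 13786 genes (69.5%), 4829 (35%) higher and 4753 (34.5%) lower in repeat 3. In 3302 of them, 24% of all, the difference was also at least 2-fold, with 1721 (12.5%) higher and 1581 (11.5%) lower in repeat 3. Counts of list members below use the stricter rule, called and at least 2-fold, and are to be read against 12.5% higher and 11.5% lower. With arrays scaled by their medians the counts over all genes were 1539 higher and 2031 lower, and with the normal-exponential background correction 875 and 850, and list counts under those alternatives are to be read against these. The median difference over all genes was 0.0054, and the arrays of the 2 repeats did not overlap for 88.4% of genes. Repeats 3 and 2 could be compared within each of the 2 slides they shared, and their difference had an SD over genes of 0.967 on the second slide and 0.946 on the third. The array 1 minus array 2 differences of repeats 3 and 2 had a Pearson correlation of 0.69 across genes. Genes of the dark spots on the third slide enter it with very large differences in both repeats. *Y54G2A.18*, for 1, had 15.79 and 4.97 in repeat 3 and 15.78 and 4.68 in repeat 2. The correlation was not computed without them, so it does not show that deviations were shared by genes at large.

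Some of the highest differences in repeat 3 over repeat 2 lay in genes named for the uterus. *ule-3*, named for the uterine lumen, had 15.05 and 15.20 in repeat 3, 9.75 and 9.64 in repeat 2 and 10.97 and 10.80 in repeat 1. Its signal was 42.9-fold higher in repeat 3 than in repeat 2 (log2 difference 5.42, SE 0.10, adjusted p = 3.27e-06). *ule-5* (Y62H9A.6), of the same naming group, was 49.7-fold higher, with 14.62 and 14.59 in repeat 3, 8.98 and 8.96 in repeat 2 and 10.25 and 10.08 in repeat 1. Both arrays of repeat 3 were far above all 4 others for each gene, and repeat 1 lay above repeat 2. *stha-3* (Y62H9A.5), *Y62H9A.4* and *Y62H9A.3*, whose sequence names place them on the same X-linked clone as *ule-5*, were 57.2-fold, 60.9-fold and 58.8-fold higher in repeat 3 than in repeat 2. *stha-3* averaged 14.80 in repeat 3, 8.97 in repeat 2 and 9.80 in repeat 1. The rest of the 10 highest were *F55B11.3* (58.0-fold), *W02D9.7* (53.9-fold), *Y37D8A.19* (53.3-fold), *ZK813.2* (at least 17.5-fold) and *C10G8.4* (at least 27.9-fold). For *ZK813.2* and *C10G8.4* the repeat 2 signal was not well above background, so the fold is a lower limit, the mean of repeat 3 over the dimmest signal that counted as well above background on each array, or the probe's own where higher. *Y62H9A.4*, *Y62H9A.3* and *W02D9.7* were well above background on 1 of the 2 arrays of repeat 2.

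Yolk, oocyte and germ line genes were higher in repeat 3 than in repeat 2 almost throughout. All 6 vitellogenin genes rose at least 2-fold (median difference 2.38). *vit-2* had 16.02 and 16.29 in repeat 3, 13.86 and 13.87 in repeat 2 and 14.52 and 14.62 in repeat 1, a 4.90-fold difference of repeat 3 over repeat 2 (adjusted p = 3.74e-05). *vit-5* had 15.59 and 15.69 in repeat 3, 12.23 and 12.39 in repeat 2 and 13.62 and 13.22 in repeat 1, which is 10.1-fold. *vit-6*, the most divergent of the family, had 15.56 and 15.64 in repeat 3, 13.72 and 13.84 in repeat 2 and 13.97 and 13.71 in repeat 1. No array of repeat 3 overlapped any other array for these genes. Probes for *vit-3*, *vit-4* and *vit-5* may each detect the others, since the genes are near copies, and they are not independent readings.

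Of 27 oocyte genes, 23 were at least 2-fold higher in repeat 3 than in repeat 2 and 1 was lower, with a median of 1.74. The yolk receptor gene *rme-2* had 15.12 and 15.09 in repeat 3, 12.73 and 12.57 in repeat 2 and 13.16 and 13.42 in repeat 1 (5.48-fold, adjusted p = 3.40e-05). *perm-2*, needed for the eggshell permeability barrier, had 14.87 and 14.76 in repeat 3, 11.47 and 11.32 in repeat 2 and 12.34 and 12.38 in repeat 1 (10.7-fold). *oma-2*, an oocyte maturation gene, had 11.37 and 11.27 in repeat 3, 9.30 and 9.54 in repeat 2 and 10.01 and 10.23 in repeat 1. The exception was *lin-41*, which is needed for oocyte growth and also acts in the epidermis as a heterochronic gene. It had 10.55 and 10.69 in repeat 3, 13.24 and 13.06 in repeat 2 and 11.71 and 10.95 in repeat 1, and so was 5.77-fold lower in repeat 3 than in repeat 2 (adjusted p = 2.57e-04). *oma-1*, chosen after its values were seen as the close relative of *oma-2*, had 11.11 and 11.18 in repeat 3, 10.73 and 11.33 in repeat 2 and 9.79 and 9.77 in repeat 1 and was not called between repeats 3 and 2.

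In the germ line list 20 of 28 genes were at least 2-fold higher in repeat 3 than in repeat 2 and 0 lower (median 1.33). *spo-11*, which makes the meiotic double-strand breaks, had 11.67 and 11.72 in repeat 3, 9.86 and 9.92 in repeat 2 and 10.48 and 10.54 in repeat 1 (3.49-fold). *pgl-3*, a P granule gene, had 11.39 and 11.38 in repeat 3, 9.60 and 9.61 in repeat 2 and 9.84 and 9.84 in repeat 1 (3.43-fold). *gld-1*, a translational repressor of the meiotic germ line, differed in its order, with 8.61 and 8.97 in repeat 3, 7.44 and 8.45 in repeat 2 and 10.57 and 10.12 in repeat 1. It was highest in repeat 1 and was not called between repeats 3 and 2. The call was gained with 75th percentile scaling (1.01, adjusted p = 0.0445) and with only genes above background on all arrays (0.84, adjusted p = 0.0396). Without array 2 of repeat 2 the difference was 1.35. Sperm genes, those of the *msp*, *spe*, *ssp*, *ssq*, *nspd* and related name groups, were higher too, by less. Of 85 tested, 46 were at least 2-fold higher and 0 lower (median 1.11), but with the arrays scaled by their medians in place of quantiles the count fell to 26. *msp-142*, for a major sperm protein, had 12.89 and 12.91 in repeat 3, 11.79 and 11.93 in repeat 2 and 12.70 and 12.29 in repeat 1 (2.06-fold). The sperm-specific gene *ssq-3* had 15.63 and 15.78 in repeat 3, 13.26 and 13.23 in repeat 2 and 13.71 and 13.70 in repeat 1 (5.50-fold). Major sperm protein genes are near-identical in sequence, and their probes do not separate them.

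**Figure D3:**
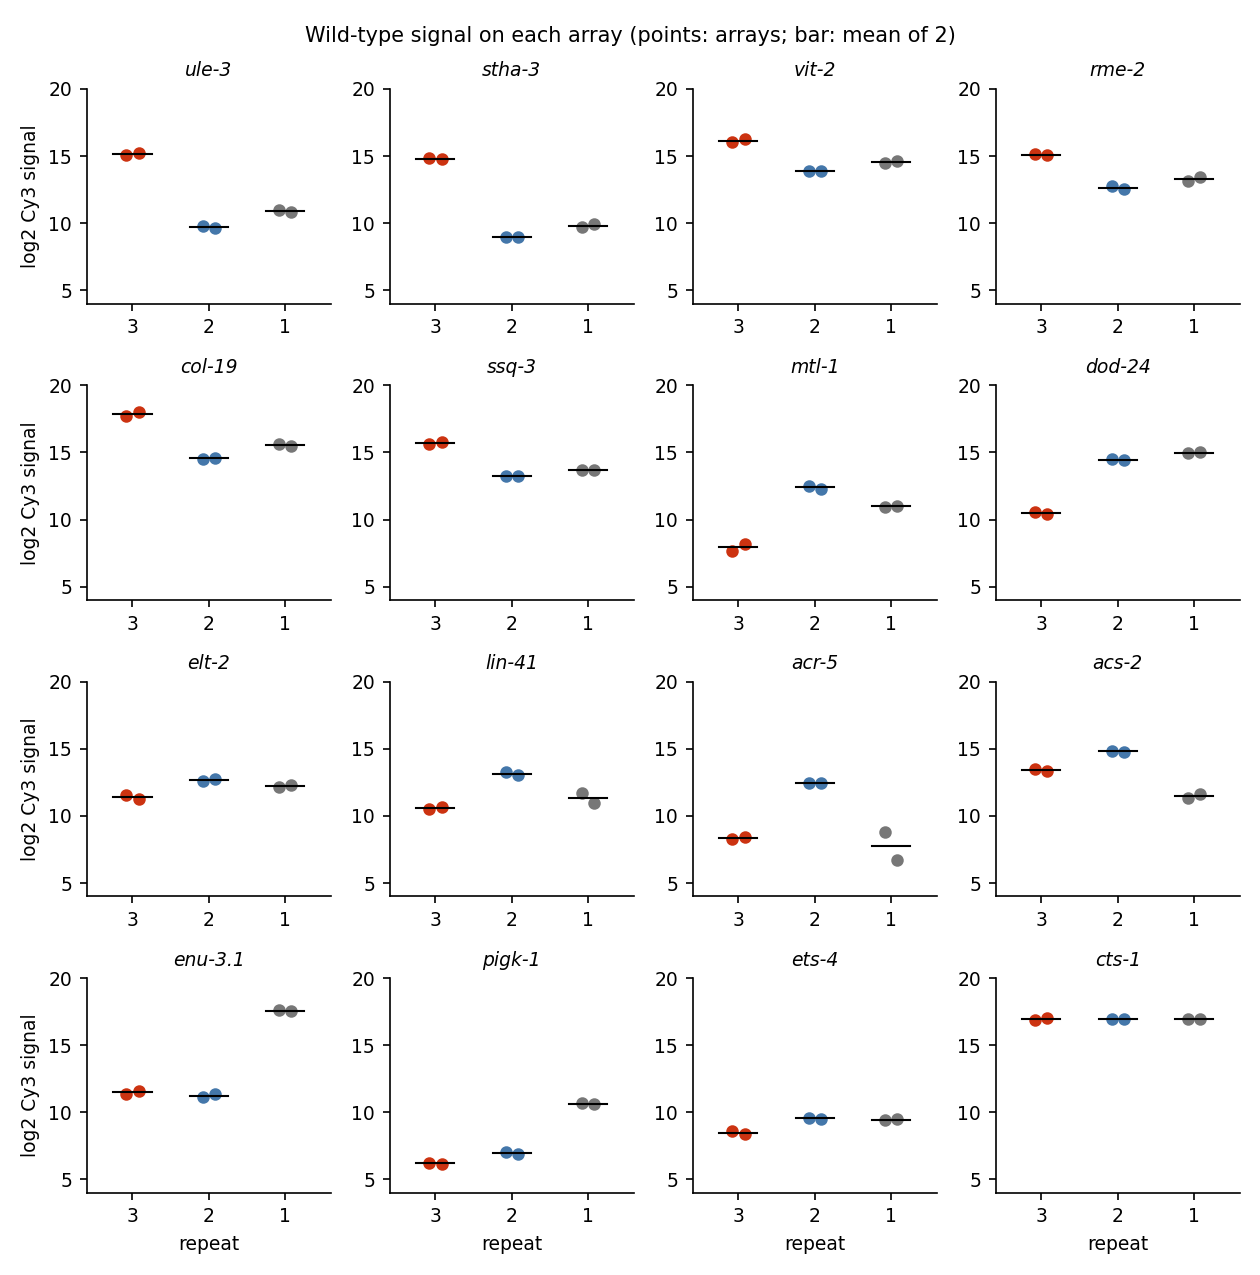
Wild-type log2 Cy3 signal (y axis) of 16 genes on each of the 2 arrays (points) of repeat 3, repeat 2 and repeat 1 (x axis), with a bar at the mean of each repeat. *ule-3*, *vit-2*, *rme-2* and *col-19* lie highest in repeat 3, *mtl-1* and *acr-5* highest in repeat 2, *enu-3.1* and *pigk-1* highest in repeat 1, and *cts-1* is level, with repeat means of 16.97, 16.96 and 16.99.

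Cuticle genes split. Among 152 collagen genes 48 were at least 2-fold higher in repeat 3 than in repeat 2 and 7 lower, with a median of 0.60. The adult collagen gene *col-19*, a standard marker of the adult epidermis, had 17.73 and 18.05 in repeat 3, 14.52 and 14.59 in repeat 2 and 15.63 and 15.50 in repeat 1 (10.1-fold over repeat 2, adjusted p = 2.18e-05). *col-7* had 18.54 and 18.91 in repeat 3, 15.09 and 15.01 in repeat 2 and 14.92 and 15.29 in repeat 1 (12.7-fold). *col-143* had 16.06 and 16.29 in repeat 3, 11.65 and 11.79 in repeat 2 and 11.19 and 10.56 in repeat 1 (21.9-fold). Unlike *col-19*, *col-7* overlapped between repeats 2 and 1. *col-81* (18-fold), *col-8* (15.8-fold) and *col-179* (15.5-fold) followed. *bli-1*, which makes the struts of the adult cuticle, went the other way, with 14.48 and 14.62 in repeat 3, 15.66 and 15.69 in repeat 2 and 15.37 and 15.26 in repeat 1 (2.17-fold lower in repeat 3 than in repeat 2). Over the 9 collagens listed for the L4 and adult cuticle 2 were at least 2-fold higher and 1 lower.

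Other secreted and surface proteins of the epidermis and pharynx moved with the collagens in part. The list of epidermis markers did not. Of 13 tested, 2 were called higher in repeat 3 than in repeat 2 and 8 lower, with 0 at least 2-fold higher and 1 lower (median −0.58). The peptide genes of the *nlp-29* type and the *cnc*, *fip* and *fipr* groups, which are made largely in the epidermis and include antimicrobial peptides, had 15 of 37 at least 2-fold higher in repeat 3 than in repeat 2 and 4 lower (median 0.74). *fipr-7* had 14.79 and 14.82 in repeat 3, 10.73 and 10.51 in repeat 2 and 11.57 and 11.49 in repeat 1 (18.2-fold). *nlp-26* had 12.54 and 12.58 in repeat 3, 9.47 and 9.45 in repeat 2 and 10.14 and 9.86 in repeat 1 (8.58-fold). Genes of the *abu* and *pqn* groups, many of them for pharyngeal cuticle proteins, had 20 of 58 higher and 2 lower, a count of 13 with a normal-exponential background correction. *pqn-31* was 7.38-fold higher. Transthyretin-like genes had 14 of 45 higher and 6 lower, and *ttr-14* had 16.18 and 16.25 in repeat 3, 13.77 and 13.73 in repeat 2 and 14.26 and 14.33 in repeat 1 (5.52-fold). Of 28 astacin protease genes 8 were higher and 2 lower, a count that fell to 2 with that background correction. *nas-20* was 11.7-fold higher in repeat 3 than in repeat 2. Among 64 genes with MATH or BATH domains 27 were higher and 12 lower, 8 and 7 with the normal-exponential correction. Their median of 0.60 turned to −0.39 when only genes above background on all arrays were kept, so no direction is given for that family.

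Molting genes were lower in repeat 3 than in repeat 2. Of 25 tested, 0 were at least 2-fold higher and 8 lower (median −0.73), 5 without array 1 of repeat 3 or without array 1 of repeat 2. *qua-1*, a hedgehog-related gene needed for molting, had 12.08 and 12.11 in repeat 3, 13.44 and 13.47 in repeat 2 and 12.70 and 12.74 in repeat 1 (2.57-fold lower). *nas-37*, an astacin protease that opens the old cuticle, had 10.78 and 10.74 in repeat 3, 12.07 and 12.10 in repeat 2 and 11.46 and 11.65 in repeat 1 (2.51-fold lower). *mlt-10* differed less, with 13.80 and 13.67 in repeat 3, 14.23 and 14.15 in repeat 2 and 14.27 and 14.31 in repeat 1 (adjusted p = 0.00481). For the hedgehog-related family as a whole 6 of 64 were higher and 14 lower, 21 under median scaling and 9 with the normal-exponential correction. *grl-21* was 5.88-fold higher in repeat 3 than in repeat 2. The heterochronic clock gene *lin-42*, related to *period*, cycles with the molts, and had 8.71 and 8.96 in repeat 3, 9.97 and 9.90 in repeat 2 and 9.44 and 8.65 in repeat 1 (2.15-fold lower in repeat 3 than in repeat 2, adjusted p = 0.00836). *egl-17*, an FGF gene expressed in vulval cells, was 7.70-fold lower in repeat 3 than in repeat 2, with 9.81 and 9.79 against 12.95 and 12.54, and had 10.67 and 10.04 in repeat 1. Of 16 vulva and anchor cell genes it was the only 1 at least 2-fold lower, and 0 were higher. Of that list 5 were called higher and 3 lower, with a median of 0.15. All 3 repeats carry the same stage label, and whether the larvae differed in age at harvest was not tested.

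Intestinal genes were lower in repeat 3. Each of 16 intestine markers had a negative difference against repeat 2, 15 were called and 5 of them were at least 2-fold lower (median −0.61), 12 when arrays were scaled by their medians. *elt-2*, the main GATA factor of the intestine, had 11.55 and 11.28 in repeat 3, 12.61 and 12.78 in repeat 2 and 12.18 and 12.33 in repeat 1 (2.43-fold lower, adjusted p = 2.97e-04). *elt-7*, its partner factor, had 9.44 and 9.43 in repeat 3, 11.04 and 10.94 in repeat 2 and 10.30 and 10.26 in repeat 1 (2.92-fold lower). *ges-1*, for the gut esterase, had 12.60 and 12.61 in repeat 3, 14.12 and 14.03 in repeat 2 and 13.82 and 13.69 in repeat 1 (2.77-fold lower). The vitellogenins, also made in the intestine, thus lay on the opposite side from these markers.

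Among the genes lowest in repeat 3 against repeat 2 was the metallothionein gene *mtl-1*, which had 7.65 and 8.20 in repeat 3, 12.51 and 12.28 in repeat 2 and 10.95 and 11.04 in repeat 1 (22.2-fold lower than repeat 2, log2 difference −4.47, SE 0.19, adjusted p = 2.82e-05). Its relative *mtl-2*, outside the 10 lowest, had 14.98 and 14.87 in repeat 3, 18.36 and 18.28 in repeat 2 and 17.30 and 17.64 in repeat 1 (10.5-fold lower). *dod-24*, known to lie downstream of the insulin-pathway factor DAF-16 and of immune signaling, had 10.53 and 10.39 in repeat 3, 14.51 and 14.42 in repeat 2 and 14.97 and 15.02 in repeat 1 (16.1-fold lower). For *mtl-1* and *mtl-2* repeat 1 lay between, and for *dod-24* it lay above repeat 2. Further among the 10 lowest were *dod-3* (16-fold), the acid sphingomyelinase gene *asm-3* (14.4-fold), the lectin gene *clec-3* (13.2-fold), the acetylcholine receptor gene *acr-5* (17.1-fold) and, as lower limits, *lips-14* (at least 16.8-fold), *clec-70* (at least 20.5-fold), *Y105C5B.3* (at least 6.54-fold) and *hsp-16.20* (at least 7.18-fold).

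C-type lectin genes had 15 of 114 at least 2-fold higher in repeat 3 than in repeat 2 and 47 lower (median −0.68), a count of lower genes that was 28 with the normal-exponential correction and 31 with uncorrected signals. *clec-2*, next to *clec-3* in value, was 10.9-fold lower, while *clec-190* was at least 4.13-fold higher. Saposin-like genes had 10 of 17 lower and 1 higher (median −1.14), among them *spp-18*, at 11.89 and 12.03 in repeat 3, 13.94 and 13.89 in repeat 2 and 12.91 and 12.89 in repeat 1. Of 13 lysozyme genes 6 were lower and 0 higher, 10 when arrays were scaled by their medians. *ilys-3*, an invertebrate-type lysozyme gene, had 14.67 and 14.67 in repeat 3, 16.65 and 16.56 in repeat 2 and 16.32 and 16.42 in repeat 1 (3.83-fold lower). All 4 thaumatin genes tested were at least 2-fold lower. *thn-7* had 9.65 and 10.11 in repeat 3, 11.58 and 11.52 in repeat 2 and 10.67 and 10.46 in repeat 1. Of 16 *pals* genes, which respond to intracellular pathogens, 6 were lower and 1 higher, but 0 were lower with the normal-exponential correction or with uncorrected signals.

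Genes of fat breakdown, glutathione S-transferases and cytochrome P450s lay largely on the same side, and UDP-glycosyltransferases on both. Among 42 genes of fatty acid breakdown 16 were at least 2-fold lower in repeat 3 than in repeat 2 and 2 higher (median −0.69), 24 lower under median scaling. The lysosomal lipase gene *lipl-1* had 9.96 and 9.92 in repeat 3, 13.02 and 13.06 in repeat 2 and 11.74 and 11.90 in repeat 1 (8.59-fold lower). *lipl-4*, a lipase gene known from work on life span, had 7.49 and 7.39 in repeat 3, 10.21 and 9.98 in repeat 2 and 10.24 and 10.34 in repeat 1 (6.28-fold lower). *fat-7*, for a stearoyl-CoA desaturase and so of the list of fatty acid synthesis, was 2.72-fold lower. Of 16 tested genes in that list 2 were at least 2-fold lower and 0 higher (median −0.34). Glutathione S-transferases had 12 of 38 lower and 1 higher, and *gst-4*, a target of the oxidative stress factor SKN-1, had 10.98 and 10.95 in repeat 3, 13.77 and 13.84 in repeat 2 and 13.37 and 13.14 in repeat 1 (7.17-fold lower). Cytochrome P450 genes had 17 of 56 lower and 7 higher, 9 lower with the normal-exponential correction or with uncorrected signals. UDP-glycosyltransferases had 13 of 59 lower and 6 higher, with 27 positive and 32 negative differences (median −0.12). *ugt-63* lay on the higher side, at 11.39 and 11.30 in repeat 3, 6.83 and 7.02 in repeat 2 and 8.17 and 8.10 in repeat 1 (21.4-fold higher in repeat 3 than in repeat 2).

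Nuclear hormone receptors, ligand-regulated transcription factors of which the worm has an unusually large family, were lower as a group. Of 173 tested, 150 had a negative difference between repeats 3 and 2, 67 were at least 2-fold lower and 2 higher (median −0.85). The 67 became 26 with the normal-exponential correction and 31 with uncorrected signals. *nhr-74* had 9.56 and 9.55 in repeat 3, 11.61 and 11.64 in repeat 2 and 11.24 and 11.13 in repeat 1 (4.19-fold lower). *nhr-280* was at least 4.09-fold lower, and *nhr-155* and *nhr-2* were at least 2.24-fold and 2.22-fold higher. Histone genes had 9 of 43 lower and 5 higher, 17 lower under median scaling. The linker histone gene *hil-3* had 11.55 and 11.36 in repeat 3, 13.51 and 13.65 in repeat 2 and 12.72 and 12.89 in repeat 1 (4.37-fold lower). Neuropeptide genes had 11 of 84 lower and 2 higher, and 7 to 17 lower over the alternatives.

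Body wall muscle markers held few differences of at least 2-fold. Pharynx markers were mostly higher and neuron markers mostly lower in repeat 3 than in repeat 2. For 18 body wall muscle genes the median difference of repeat 3 minus repeat 2 was 0.26, and 1 was at least 2-fold higher and 0 lower. With median scaling that median was 0.074, with 0 genes higher and 1 lower. *unc-54*, the major myosin heavy chain gene of body wall muscle, had 14.83 and 14.48 in repeat 3, 14.15 and 13.93 in repeat 2 and 14.14 and 14.28 in repeat 1. Its difference of 0.62 between repeats 3 and 2 (adjusted p = 0.00978) lost the call when arrays were scaled by their medians (0.14, adjusted p = 0.469). The troponin I gene *unc-27* had 17.08 and 16.85 in repeat 3, 15.90 and 15.66 in repeat 2 and 15.72 and 15.69 in repeat 1 (2.28-fold, log2 difference 1.19, which was 0.54 with median scaling). *myo-2*, the pharyngeal myosin gene, had 11.15 and 11.24 in repeat 3, 11.19 and 11.06 in repeat 2 and 11.11 and 10.77 in repeat 1, and *rab-3*, a synaptic vesicle gene, had 10.69 and 10.74, 10.87 and 10.98, and 10.83 and 10.66 in the same order. Neither was called in any of the 3 comparisons, although *rab-3* gained a call between repeats 3 and 2 under some alternatives. Of 14 pharynx genes 11 were called higher in repeat 3 than in repeat 2 and 1 lower, with 3 at least 2-fold higher and 0 lower (median 0.71). Of 34 neuron genes 2 were called higher and 20 lower, with 1 at least 2-fold higher and 4 lower (median −0.39). Over all genes 35% were called higher and 34.5% lower. With the normal-exponential correction 1 pharynx gene was at least 2-fold higher and 2 neuron genes were lower. Ribosomal proteins had 0 of 75 higher and 1 lower, the proteasome 0 of 33 higher and 1 lower, and the respiratory chain 3 of 40 higher and 1 lower.

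**Figure D4:**
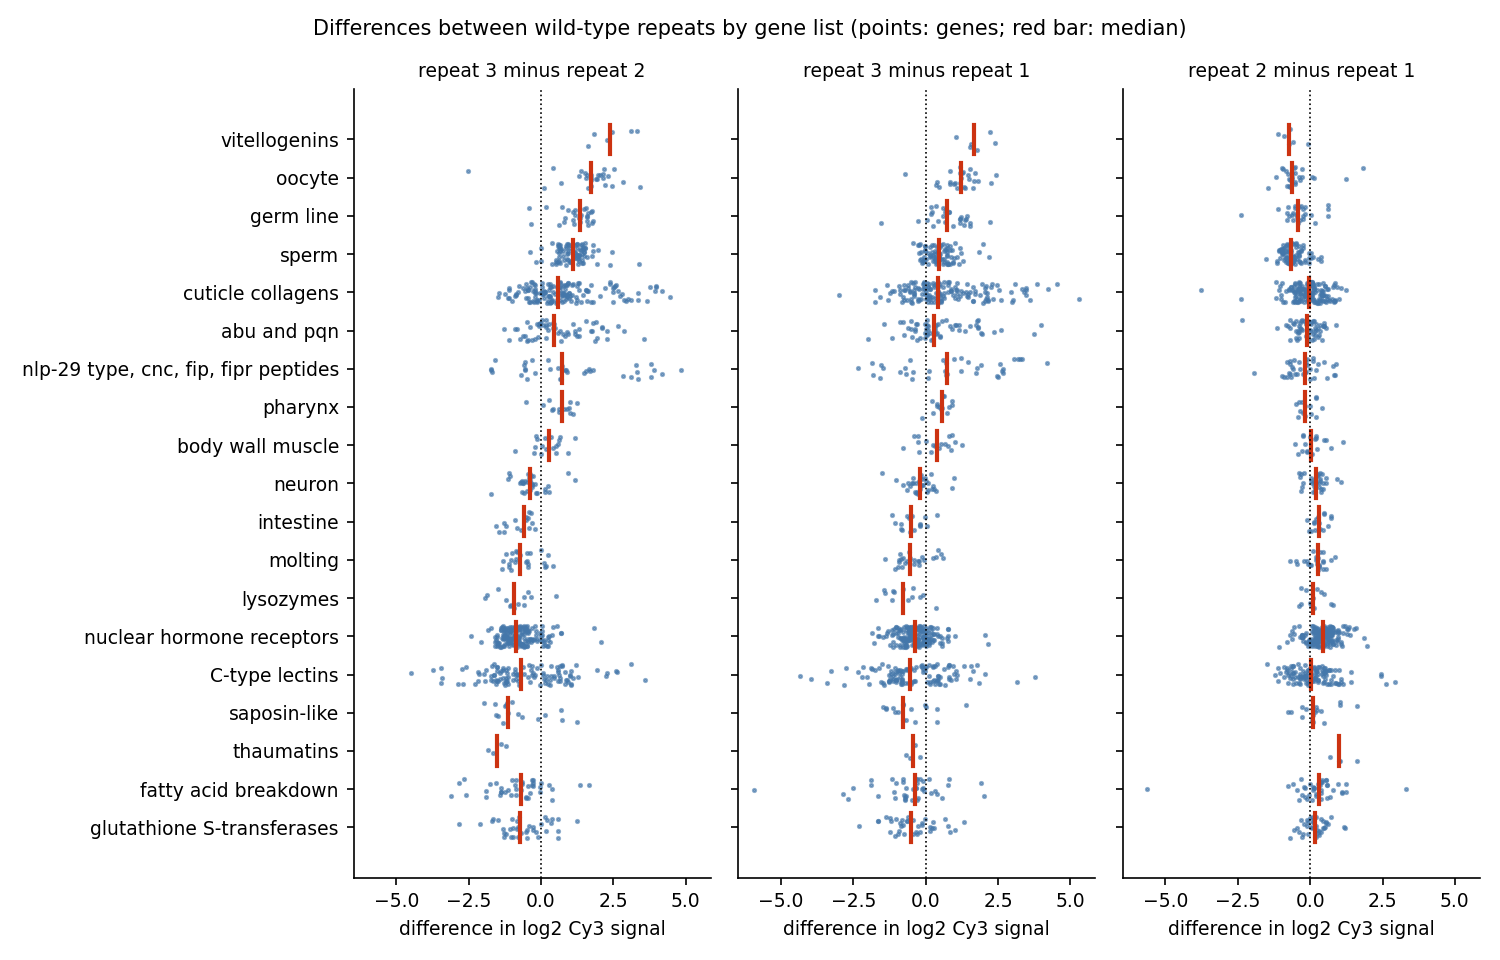
Differences in log2 Cy3 signal (x axis) between repeat 3 and repeat 2 (left), repeat 3 and repeat 1 (middle) and repeat 2 and repeat 1 (right) for the tested genes (points) of 19 lists, with a red bar at each list's median. Vitellogenins, oocyte, germ line and sperm genes lie to the right of 0 in repeat 3 minus repeat 2 (medians 2.38, 1.74, 1.33 and 1.11) and nuclear hormone receptors, saposin-like genes and thaumatins to the left (−0.85, −1.14 and −1.52).

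Repeat 3 minus repeat 1 gave 8155 called genes of 13785 (59.2%), 3961 (28.7%) higher and 4194 (30.4%) lower, and arrays did not overlap for 79.2%. Of the calls 2103 (15.3% of all) were at least 2-fold, 1094 (7.94%) higher and 1009 (7.32%) lower in repeat 3. With median scaling the split was 871 higher and 1377 lower. It was 501 and 442 with the normal-exponential correction and 1224 and 1119 without array 2 of repeat 1. List counts under those alternatives are to be read against these. Repeat 1 cannot be told apart from its slide and software version, and the comparison shares the repeat 3 arrays with the one above. All 6 vitellogenins (5 with median scaling), 19 of 27 oocyte genes, 11 of 28 germ line genes, 53 of 152 collagens and 9 of 85 sperm genes (3 with median scaling) were at least 2-fold higher in repeat 3 than in repeat 1, with 0, 0, 1, 8 and 0 lower. Lower in repeat 3 were 36 of 114 C-type lectins (17 with the normal-exponential correction), 20 of 173 nuclear hormone receptors (7 with that correction), 6 of 13 lysozymes and 5 of 17 saposin-like genes (8 with median scaling, 3 without array 2 of repeat 1), against 11, 3, 0 and 1 higher. The 10 highest included *Y58A7A.5* (at least 38-fold), *C10G8.4* (at least 37.5-fold), *K07A1.6* (at least 33.3-fold), *C08F11.12* (at least 22.6-fold), *Y45F10C.2* (at least 19.3-fold) and *ZK813.2* (at least 23.4-fold), all not well above background in repeat 1. *col-143* (39.4-fold), *C49G7.7*, *stha-3* (32.1-fold) and *parg-2*, a poly(ADP-ribose) glycohydrolase gene, made up the rest. *dod-24* (23.2-fold), *clec-3* (20.1-fold), *lips-14* (at least 12.7-fold) and *clec-2* were 4 of the 10 lowest, and the other 6 were genes that read high on the repeat 1 slide alone.

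Those genes are best seen in *enu-3.1*, with 11.40 and 11.59 in repeat 3, 11.15 and 11.36 in repeat 2 and 17.61 and 17.57 in repeat 1. It was 68.4-fold lower in repeat 3 and 80.7-fold lower in repeat 2 than in repeat 1, and repeats 3 and 2 were not called apart (adjusted p = 0.103). *pigk-1*, for a subunit of the GPI transamidase, had 6.26 and 6.18 in repeat 3, 7.07 and 6.93 in repeat 2 and 10.69 and 10.60 in repeat 1. *ntl-3*, for a subunit of the CCR4-NOT deadenylase complex, averaged 6.87 in repeat 3, 7.11 in repeat 2 and 10.87 in repeat 1. *C18H9.2*, *Y49G5B.1* and *C40H5.2* were not well above background in repeats 3 and 2 and at least 13.7-fold, 8.47-fold and 7.03-fold brighter in repeat 1 than in repeat 3. In all, 9 genes were at least 3 log2 units brighter on both arrays of the first slide than on the other 4, at scattered positions of the array.

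Repeat 2 minus repeat 1 was the smallest of the 3 contrasts, with 6302 called genes of 13785 (45.7%), 2816 (20.4%) higher and 3486 (25.3%) lower in repeat 2, and arrays that did not overlap for 72.6%. At least 2-fold were 768 (5.57%), 450 (3.26%) higher and 318 (2.31%) lower in repeat 2. With the arrays scaled by their 75th percentiles the split was 338 higher and 593 lower. It was 149 and 76 with the normal-exponential correction and 512 and 407 without array 2 of repeat 1. List counts under those alternatives are to be read against these. The count of calls was 3421 without array 1 of repeat 2 and 3626 without array 2 of repeat 2. Nuclear hormone receptors had 16 of 173 higher and 1 lower (6 higher with the normal-exponential correction), cytochrome P450s 8 of 56 higher and 0 lower (2 with that correction), and sperm genes 0 of 85 higher and 8 lower (22 without array 2 of repeat 1). *acs-2*, an acyl-CoA synthetase gene of fatty acid oxidation that is induced by fasting, had 14.86 and 14.77 in repeat 2 against 11.37 and 11.65 in repeat 1 (9.84-fold), and lay between at 13.54 and 13.33 in repeat 3. *cyp-37B1*, a cytochrome P450 gene, had 13.24 and 13.33 in repeat 2 and 10.56 and 10.65 in repeat 1 (6.41-fold), beside 10.20 and 10.27 in repeat 3. Both arrays of repeat 2 stood above all others for these 2 genes.

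A few genes were high in repeat 2 alone. *acr-5* had 8.25 and 8.44 in repeat 3, 12.44 and 12.44 in repeat 2 and 8.82 and 6.75 in repeat 1, whose 2 arrays themselves lay apart. *hsp-16.20*, by name a small heat-shock gene, read 8.71 and 8.74 in repeat 2 and was not well above background elsewhere (at least 6.38-fold over repeat 1). In contrast *hsp-16.2*, the textbook heat-shock reporter gene, had 12.72 and 12.61 in repeat 3, 13.13 and 13.09 in repeat 2 and 13.19 and 13.27 in repeat 1. *klp-17*, a kinesin-like gene, had 7.34 and 7.61 in repeat 3, 10.05 and 9.35 in repeat 2 and was not well above background in repeat 1 (repeat 2 at least 12.6-fold over it). Also among the 10 highest in repeat 2 over repeat 1 were *tat-6*, a phospholipid flippase gene, *F47B10.9*, *C01A2.6*, *lact-6* (at least 4.30-fold) and *Y105C5B.7* (at least 4.68-fold). The 10 lowest held the repeat 1 genes above with *C06G3.4*, *Y41D4A.4*, *Y62H9A.1* and *let-765*.

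The mean of repeat 1 lay between the other 2 for 7069 of 13621 genes (51.9%). Over gene lists the order varied. All 6 vitellogenins, 23 of 27 oocyte genes, 21 of 27 germ line genes and 62 of 84 sperm genes ran repeat 3 over repeat 1 over repeat 2, an order held by 27.1% of all genes. Repeat 2 over repeat 1 over repeat 3, held by 24.8% of all genes, was the order of 111 of 173 nuclear hormone receptors, 11 of 15 intestine markers, 4 of 4 thaumatins and 27 of 42 histones. These orders describe means of 2 arrays, and neighbors in them were not always called apart. The wild-type gene *ets-4* itself had 8.60 and 8.38 in repeat 3, 9.60 and 9.53 in repeat 2 and 9.46 and 9.47 in repeat 1, 2.11-fold lower in repeat 3 than in repeat 2 (adjusted p = 2.56e-04).

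Chromosomes were not touched alike. On the X chromosome 173 of 1856 genes (9.32%) were at least 2-fold higher in repeat 3 than in repeat 2 and 324 (17.5%) lower, with a median difference of −0.42. On chromosome I the shares were 13.5% higher and 6.90% lower of 2161 genes with a median of 0.14, and on chromosome IV 14.7% and 10.8% of 2306 genes. Chromosome V was near balance at 13.9% higher and 14.9% lower. X linkage did not fix the direction, since *vit-2*, *col-19*, *ule-5* and *stha-3*, all higher in repeat 3, are X-linked like *elt-2* and *hil-3*, which were lower. The part of single gene lists in these shares was not tested.

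**Figure D5:**
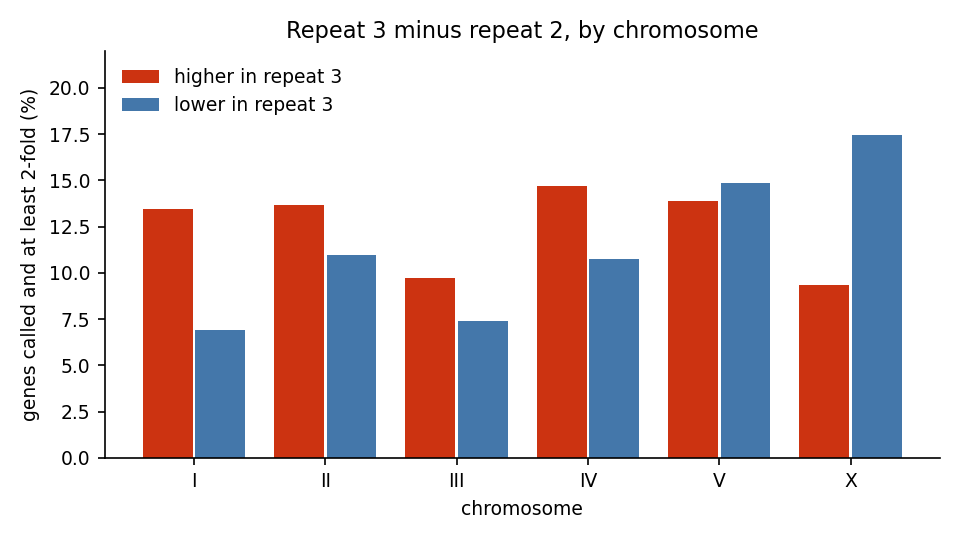
Share of tested genes on each chromosome (x axis) that were called and at least 2-fold different in repeat 3 minus repeat 2 (y axis, percent of genes), higher in repeat 3 (red, left bar of each pair) and lower (blue, right bar). The X chromosome has 9.32% higher and 17.5% lower, against 12.5% and 11.5% of all genes.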

How the data were processed

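The deposited intensity values are per-spot scanner output of Agilent Feature Extraction (versions 8.5.1.1 for repeat 1 and 9.1.3.1 for repeats 3 and 2, per the file headers), and the processed Cy3 signal used here was background-subtracted by the authors' software and dye-normalized against the mutant Cy5 signal of the same array, so mutant values enter through that curve. It was log2 transformed and quantile normalized. Outlier spots (3 to 150 per array) were left out, spots of a probe averaged, and the brightest probe stood for a gene (20401 probes, 19833 with a name, 18121 of 18873 genes matched to current symbols). Genes well above background on at least 2 of 6 arrays entered limma (version 3.58.1, R version 4.3.3) with a mean per repeat, 3 residual degrees of freedom and Benjamini-Hochberg adjustment over all genes. A gene could thus enter through 1 repeat alone. With genes above background on all arrays only, 731 were at least 2-fold higher and 856 lower in repeat 3 minus repeat 1. In repeat 2 minus repeat 1 the counts were 315 and 197. The fit was tested on simulated data. The number of arrays limits the precision.

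Named genes were the 10 highest and 10 lowest called in each comparison, above background in at least 1 of its repeats with arrays that did not overlap, the 12 highest and 12 lowest signals, the 10 smallest SDs, and for each list up to 4 members of widest range with textbook markers. Members and the 47 lists were chosen with earlier results of these data known. Log ratios and the mutant channel were not used. Alternatives were other scalings, background treatments, filters, probe summaries, blocks and leaving out each array.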

Additional observations from a re-analysis of the deposited data

Results flagged for a closer look

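Probes with no gene name were not part of the comparisons. Of 568 such probes, 243 were well above background on all 6 wild-type arrays and 246 on none.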

How the results depend on the processing

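For the 250 results for single named genes, 50 of 4682 alternative values lost the call, 38 gained it and 0 were reversed. A change of sign counted as reversed only where the main or the alternative result was called. Without each array in turn the calls ranged from 7756 to 10424 in repeat 3 minus repeat 2, 5651 to 8552 in repeat 3 minus repeat 1, 3421 to 6797 in repeat 2 minus repeat 1 and 8780 to 11352 over the 3 repeats, and those of at least 2-fold from 3230 to 3388, 2073 to 2343 and 750 to 919 in the 3 contrasts. Counts of at least 2-fold, an alternative chosen after seeing the data, depended on background treatment: with the normal-exponential correction they were 1725, 943 and 225, and with mean signals that had no correction 1903, 1069 and 261, in place of 3302, 2103 and 768. Under median scaling the median of all genes stood at −0.10 in both contrasts with repeat 3, and in repeat 2 minus repeat 1 it gave 404 genes at least 2-fold higher and 502 lower. The array 1 minus array 2 differences correlated at 0.69 for repeats 3 and 2, with the dark spots of the third slide included, −0.13 for 3 and 1 and −0.16 for 2 and 1. Array number also stands for the strain on the other channel, and in repeats 3 and 2 for the slide. These correlations therefore cannot decide whether arrays of the same number shared a sample. With array number (the strain on the other channel) as a replicate block, calls were 9168, 7513, 5396 and 10193, and the block changed no call of a named gene. Slide as a random block gave 8867, 8903, 7299 and 11057. The correlation estimated within slides was −0.44, and a negative value does not describe an effect shared by the arrays of a slide. The 6 arrays limit the precision, and genes near background or saturated in a repeat have only bounds.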

Other observations

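Subunits of the CCR4-NOT complex, which shortens the poly(A) tails of mRNAs, were not alike across repeats. They were chosen after *ntl-3* had been seen among the genes bright in repeat 1. *ntl-9* had 7.02 and 7.12 in repeat 3, 7.31 and 6.85 in repeat 2 and 9.82 and 9.81 in repeat 1, 6.69-fold lower in repeat 3 than in repeat 1 (adjusted p = 8.15e-05 by limma). *ccr-4*, for a deadenylase subunit, had 6.87 and 7.06 in repeat 3, 7.17 and 6.93 in repeat 2 and 8.69 and 8.97 in repeat 1 (3.64-fold lower, adjusted p = 2.05e-04). Other subunits lay closer together, with *ccf-1* at 10.23 and 10.25 in repeat 3, 10.68 and 10.72 in repeat 2 and 10.85 and 10.64 in repeat 1, and *ntl-11* at 9.74 and 9.59, 9.75 and 9.73, and 9.70 and 10.14 in the same order. Repeat 1 cannot be told apart from its slide and software version.

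Genes of the switch between sperm and oocytes in the germ line were also chosen after the other values were seen. *fog-1*, which promotes sperm fate, had 8.98 and 9.24 in repeat 3, 9.47 and 10.61 in repeat 2 and 8.73 and 7.60 in repeat 1, and *fog-3* had 9.57 and 9.75, 9.92 and 10.26, and 9.37 and 9.07 in the same order. Neither was called between repeats 3 and 2 (adjusted p = 0.129 and 0.0506 by limma). *fog-2* had 11.54 and 11.51 in repeat 3, 10.05 and 9.89 in repeat 2 and 10.10 and 10.23 in repeat 1, 2.94-fold higher in repeat 3 than in repeat 2.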
